A study of Mus musculus with 8 samples.

Results

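Brain macrophages were the nuclei that the study's annotation of microglia and macrophages labelled Macrophages. They were 205 of the 2291 nuclei in that annotation and of 61949 nuclei in all. The tissue was a brain hemisphere from which the olfactory bulb and cerebellum had been removed, of C57BL6/J mice aged 6 months. There were 4 genotypes with 2 libraries each: WT, Cnp-/-, 5xFAD and Cnp-/-;5xFAD. Cnp-/- mice lack CNP, a protein of the myelin sheath, in all cells. 5xFAD mice carry mutant human transgenes, APP among them, under the neuronal Thy1 promoter and develop amyloid plaques, and Cnp-/-;5xFAD mice carry both alterations. The comparison of genotypes asks whether amyloid, defective myelin or their combination changed the number or the transcripts of brain macrophages. The study's reporting form states that each replicate of its single-cell work was a pool of 2 animals, which its methods do not repeat for these libraries. P values therefore measure the spread between libraries and not between single mice.

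Border-associated macrophages sit in the meninges, along vessels and in the choroid plexus, whereas microglia sit in the parenchyma. Macrophages at these borders take up material from fluid and vessels through scavenger and lectin receptors such as CD206 (Mrc1) and CD163, and some of them present antigen on MHC class II. Microglia depend on TGF-beta signalling and on the transcription factor SALL1, and both cell types depend on the CSF1 receptor. Microglia that meet plaques or myelin debris take on a disease-associated (DAM) state with raised Apoe and other genes of lipid handling, and the study separated an amyloid-DAM, a myelin-DAM and a population enriched for myelin transcripts (MyTE) from homeostatic microglia.

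Transcripts were counted by unique molecular identifiers (UMIs), so that PCR copies of 1 molecule count once, and levels are given as CPM, the UMIs of a gene scaled to a fixed total of UMIs over the summed nuclei of a library. The 205 nuclei held 412712 UMIs, with a median of 1783 UMIs and 1246 detected genes per nucleus. The libraries contributed 31 and 19 nuclei for WT, 10 and 12 for Cnp-/-, 57 and 26 for 5xFAD, and 24 and 26 for Cnp-/-;5xFAD, in the order of replicates 1 and 2 that is kept below. Their summed depth ran from 18335 UMIs in Cnp-/- replicate 1, where 1 UMI equals 54.5 CPM, to 133792 UMIs in 5xFAD replicate 1, where it equals 7.47 CPM. Low levels in the Cnp-/- libraries therefore rest on very few molecules. Cnp itself, measured in mature oligodendrocytes, lay between 219 and 321 CPM in the 4 libraries with an intact Cnp gene and between 23.1 and 32.8 CPM in the 4 Cnp-/- and Cnp-/-;5xFAD libraries. Macrophages held 0 to 2 Cnp UMIs per library. No barcode was shared between macrophages of different libraries.

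The 4 markers of the population were read in every library. F13a1, which encodes the A subunit of coagulation factor XIII (chr13:36867178-37050244, minus strand, GRCm38), had 3693 and 5567 CPM in WT, 3818 and 4682 in Cnp-/-, 3453 and 4300 in 5xFAD, and 4470 and 3389 in Cnp-/-;5xFAD. Mrc1, the mannose receptor (chr2:14229392-14332057, plus strand), had 3057 and 4374 CPM in WT, 2509 and 5402 in Cnp-/-, 2668 and 2974 in 5xFAD, and 2812 and 3815 in Cnp-/-;5xFAD. For F13a1 the ranges of all genotypes overlapped, and for Mrc1 both 5xFAD libraries lay below both WT libraries. No library was without either gene. Dab2, an endocytic adaptor (chr15:6299788-6440712, plus strand), had 2951 and 2759 CPM in WT, 2509 and 5042 in Cnp-/-, 2511 and 2265 in 5xFAD, and 3073 and 3602 in Cnp-/-;5xFAD. Cd163, the scavenger receptor for haemoglobin bound to haptoglobin (chr6:124304656-124330527, plus strand), had 530 and 1143 CPM in WT, 873 and 669 in Cnp-/-, 777 and 320 in 5xFAD, and 689 and 767 in Cnp-/-;5xFAD. Dab2 was highest in Cnp-/- replicate 2, and as for Mrc1 both 5xFAD libraries lay below both WT libraries. How many of all genes show such an order of 2 against 2 libraries was not worked out. In the test given below, 0 of the 4 markers passed for 5xFAD. Cd163 was highest in WT replicate 2 and lowest in 5xFAD replicate 2.

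The same genes were near 0 in homeostatic microglia of the same 8 libraries. F13a1 had a mean of 4172 ± 736 CPM (SD, n = 8 libraries) in macrophages and 7.15 ± 6.54 CPM in homeostatic microglia, a ratio of 584. Mrc1 had 3452 ± 1006 against 7.47 ± 7.86 CPM, and Dab2 had 3089 ± 891 against 40.2 ± 17.4 CPM. Cd163 had 721 ± 241 CPM in macrophages and 0 UMIs in homeostatic microglia, which puts it at least 296-fold higher when the 0 is replaced by the floor of 3 UMIs over the group. These values describe the population and were not tested, because the nuclei had been clustered on the same counts.

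To compare cell types of unequal depth, each nucleus was thinned to 500 UMIs. At that depth, 71.7% of macrophages had an F13a1 UMI, 72.1% a Mrc1 UMI, 66.8% a Dab2 UMI and 26.2% a Cd163 UMI. In neurons, which should lack these genes and had a median of 9105 UMIs per nucleus before thinning, the shares were 0.166%, 0.0353%, 0.160% and 0.0424%. Outside microglia and macrophages the highest share was 6.66% for Dab2 in endothelial cells, and 0.541% for F13a1 and 0.597% for Mrc1 in newly formed oligodendrocytes. A single marker UMI is weak support for the label, since 19 of the 255 MyTE nuclei outside the macrophage cluster also held one. Before thinning, 195 of the 205 macrophage nuclei held at least 1 UMI of the 4 genes. The other 10 are described with the nuclei that stood apart.

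**Figure D1:**
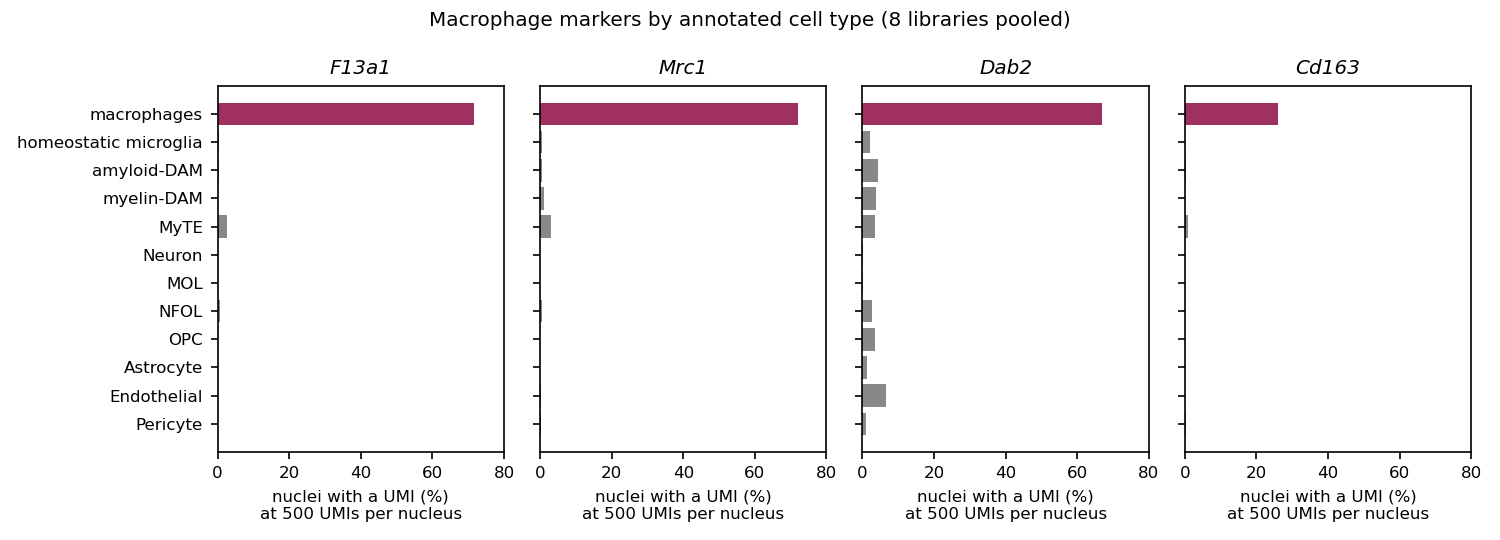
Percent of nuclei with at least 1 UMI of F13a1, Mrc1, Dab2 or Cd163 after each nucleus was thinned to 500 UMIs, by annotated cell type, 8 libraries pooled (MOL, mature oligodendrocytes; NFOL, newly formed oligodendrocytes; OPC, oligodendrocyte precursor cells). Macrophages reach 66.8% to 72.1% for 3 of the markers and 26.2% for Cd163, and the highest bar of a cell type other than microglia or macrophages is 6.66% for Dab2 in endothelial cells.

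Sequence upstream of the start site is shown for Mrc1 and Cd163, a pair of receptors that mark the population together. Both stretches are the 250 bases before the start in RefSeq on GRCm38.p6, chr2:14229164-14229413 and chr6:124304401-124304650, both on the plus strand and written 5′ to 3′. Capitals mark exact matches to GAGGAA or its reverse complement TTCCTC, letters bound by the myeloid factor PU.1.
Mrc1: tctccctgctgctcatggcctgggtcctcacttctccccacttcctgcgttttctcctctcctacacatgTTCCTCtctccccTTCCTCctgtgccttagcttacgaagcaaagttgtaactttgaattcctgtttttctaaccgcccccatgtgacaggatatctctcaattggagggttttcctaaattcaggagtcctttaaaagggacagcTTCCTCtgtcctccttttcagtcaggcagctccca
Cd163: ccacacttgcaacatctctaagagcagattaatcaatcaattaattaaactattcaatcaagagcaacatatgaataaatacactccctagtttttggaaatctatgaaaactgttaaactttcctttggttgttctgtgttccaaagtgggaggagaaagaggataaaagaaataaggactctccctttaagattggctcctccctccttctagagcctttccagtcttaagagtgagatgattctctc
The Mrc1 stretch held 3 matches, all TTCCTC, and the Cd163 stretch held 0. The letters occur on either strand in 7639 of 32851 promoters of this length (23.3%), and in at least 1 promoter of 7 of the 18 genes with a RefSeq promoter among the 20 with the highest ratio given next (38.9%, against 25.9% of all genes). Spi1, which encodes PU.1, had 288 ± 135 CPM in macrophages and 357 ± 52.3 CPM in homeostatic microglia.

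Macrophages and homeostatic microglia were then set side by side over all genes. Of 8177 genes with at least 20 UMIs in the 2 populations together, 1058 (12.9%) had at least 2-fold higher mean CPM in macrophages and 974 (11.9%) at least 2-fold lower mean CPM. Of 32 genes known from border macrophages that met this minimum, 30 were at least 2-fold higher and 1 was lower. Of 20 genes of homeostatic microglia, 0 were higher and 14 were lower. The border macrophage list includes the 4 markers, and the lists were chosen with earlier results of these data known. The nuclei had also been clustered on these counts. The list counts here and below therefore describe the population, were not tested and are no independent evidence for the label.

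The 20 genes with the highest ratio were Cd163, F13a1, Ms4a7, Mrc1, Mndal, Ms4a4a, Cd209f, Cd209g, Clec10a, Cd209b, Cd36, F630028O10Rik, Clec4a1, Klra2, Cbr2, Aoah, Cd209a, Pf4, H2-Ab1 and Cd38. For a gene with 0 UMIs in homeostatic microglia, 1 UMI was added to both sums to rank it, so the place of such genes depends on that addition. Ifi203, of the interferon-inducible p200 family, with 268 against 2.15 CPM and named after its values had been seen, was not among the 20, although its ratio exceeds what Cd209a reaches with the floor of 3 UMIs. Among them are the C-type lectins Cd209a, Cd209b, Cd209f, Cd209g, Clec10a, Clec4a1 and Klra2. Cd209f had 141 and 348 CPM in WT, 273 and 154 in Cnp-/-, 247 and 229 in 5xFAD, and 205 and 362 in Cnp-/-;5xFAD, and 0 UMIs in homeostatic microglia. Cd209a, Cd209b and Cd209g also had 0 UMIs there, against 138 ± 63.3, 191 ± 77.5 and 245 ± 144 CPM in macrophages. Members of the Cd209 and Ms4a families are similar in sequence, and how reads shared between copies were assigned was not given in the sources used here, so the split within each family is uncertain. Aoah, a lipase that inactivates bacterial lipopolysaccharide, had 992 ± 236 CPM in macrophages and 5.50 ± 7.42 CPM in homeostatic microglia. F630028O10Rik, a gene of unassigned function, had 719 ± 145 against 3.43 ± 5.18 CPM. Pf4, a chemokine, varied widely relative to its mean, with 260 ± 268 against 1.62 ± 3.12 CPM.

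Scavenger and endocytic receptors were mostly higher, with 14 of 19 at least 2-fold higher and 2 lower, beside 12.9% and 11.9% of all genes. Stab1, which clears modified lipoproteins, had 2668 and 2684 CPM in WT, 2291 and 2572 in Cnp-/-, 1771 and 1853 in 5xFAD, and 2607 and 1982 in Cnp-/-;5xFAD. Homeostatic microglia had 198 to 412 CPM of Stab1. Colec12, a collectin receptor, had 828 ± 399 CPM in macrophages, 7.97 ± 4.84 in homeostatic microglia and 358 ± 129 in myelin-DAM (n = 4 libraries). Its spread between macrophage libraries was wide, from 99.4 CPM in WT replicate 2 to 1286 CPM in Cnp-/- replicate 2. Lyve1, a hyaluronan receptor of perivascular macrophages, was sparse, with 36 UMIs in 25 nuclei, and had 0 UMIs in homeostatic microglia. Msr1, a scavenger receptor of class A, had 242 ± 132 against 3.05 ± 3.39 CPM. Mertk, a receptor for dying cells that microglia also carry, was on the other side, with 1055 ± 110 against 2774 ± 183 CPM.

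Of 10 genes of iron and haem handling, 7 were at least 2-fold higher in macrophages and 0 were lower. Of all genes, 12.9% were higher and 11.9% lower. Beside Cd163, ceruloplasmin (Cp) had 361 ± 138 against 56.6 ± 20.3 CPM, biliverdin reductase B (Blvrb) 240 ± 124 against 31.5 ± 19.7 CPM, and the iron exporter Slc40a1 304 ± 126 against 151 ± 30.6 CPM. Of 12 complement genes, 6 were higher and 1 was lower, beside 12.9% and 11.9% of all genes. C1qb, a chain of the C1q initiator, had 647 ± 359 against 321 ± 153 CPM, and Vsig4, a complement receptor of resident macrophages, had 133 ± 92.1 CPM in macrophages and 0 UMIs in homeostatic microglia. The 1 member on the lower side, near the share of all genes, was Itgam, a subunit of complement receptor 3. It had 169 ± 82.2 against 626 ± 50.6 CPM.

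Of 6 Ms4a genes, which encode membrane proteins of 4 transmembrane segments, 6 were at least 2-fold higher in macrophages, beside 12.9% of all genes. Ms4a7 had 495 and 423 CPM in WT, 436 and 772 in Cnp-/-, 321 and 320 in 5xFAD, and 410 and 682 in Cnp-/-;5xFAD. It had 0 UMIs in homeostatic microglia, 16.8 ± 18.4 CPM in amyloid-DAM (n = 5 libraries) and 121 ± 6.18 CPM in myelin-DAM (n = 4). Ms4a4a had 315 ± 166 CPM in macrophages and 12.5 ± 14.8 CPM in myelin-DAM. Ms4a6b and Ms4a6c had 394 ± 196 and 282 ± 224 CPM in macrophages and 40.7 ± 17.3 and 21.6 ± 18.4 CPM in homeostatic microglia.

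Interferon-related genes and MHC class I were higher for 7 of 16 genes and lower for 0, beside 12.9% and 11.9% of all genes. Ifi207, of the interferon-inducible p200 family, had 410 ± 122 against 5.45 ± 9.02 CPM, and H2-D1 had 234 ± 104 against 77.3 ± 21.3 CPM. Among 8 chemokines and cytokines, 4 were higher and 1 was lower, beside the same shares of all genes. Igf1, the growth factor, had 299 ± 164 CPM in macrophages, 25.0 ± 19.8 in homeostatic microglia and 417 ± 30.8 in myelin-DAM. Of 26 lysosomal genes, 4 were higher and 1 was lower, beside 12.9% and 11.9% of all genes. Cathepsin C (Ctsc) had 948 ± 207 against 210 ± 42.9 CPM.

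Of 21 transcription factors, 4 were at least 2-fold higher and 4 were lower, beside 12.9% and 11.9% of all genes. Rbpj, the DNA-binding partner of Notch, had 4329 and 2933 CPM in WT, 4145 and 7048 in Cnp-/-, 3326 and 3385 in 5xFAD, and 3744 and 3645 in Cnp-/-;5xFAD, against 75.9 to 198 CPM in homeostatic microglia. The lowest macrophage library exceeded the highest microglial one by a wide margin. Maf, a factor of resident macrophages, had 1524 ± 454 against 560 ± 74.7 CPM. Sall1, the factor that holds microglial identity, had 6 UMIs in 205 macrophages (0 to 37.2 CPM per library) and a mean of 338 ± 36.4 CPM in homeostatic microglia.

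Genes of homeostatic microglia were lower in macrophages, but most were not at 0. P2ry12, a purine receptor of microglial processes, had 406 and 597 CPM in WT, 436 and 772 in Cnp-/-, 486 and 480 in 5xFAD, and 521 and 831 in Cnp-/-;5xFAD, and homeostatic microglia had 911 to 1231 CPM. Tgfbr1, a receptor for TGF-beta, had 546 ± 183 against 2930 ± 345 CPM, and Csf1r, the CSF1 receptor, had 817 ± 126 against 1222 ± 120 CPM. Tmem119, a microglial membrane protein, had 2 UMIs in macrophages. The microglial list summed to 6328 to 8351 CPM per macrophage library and to 17351 to 23238 CPM in homeostatic microglia, without overlap. Of 16 genes of TGF-beta and CSF1 receptor signalling, 0 were at least 2-fold higher and 5 were lower. Of all genes, 12.9% were higher and 11.9% lower.

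The 10 genes with the lowest ratio were Spint1, Gm32849, Gm3739, Ecscr and Ccdc192, which had 0 UMIs in macrophages, and A830008E24Rik, Gm43821, Gm12865, Slc2a5 and Upk1b, which had 1 to 3 UMIs. Slc2a5, the fructose transporter of microglia, had 2 UMIs in macrophages (4.04 ± 8.81 CPM) and 155 ± 39.6 CPM in homeostatic microglia. A830008E24Rik, a gene of unassigned function, had 3 UMIs (4.73 ± 9.01 CPM) against 390 ± 114 CPM.

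**Figure D2:**
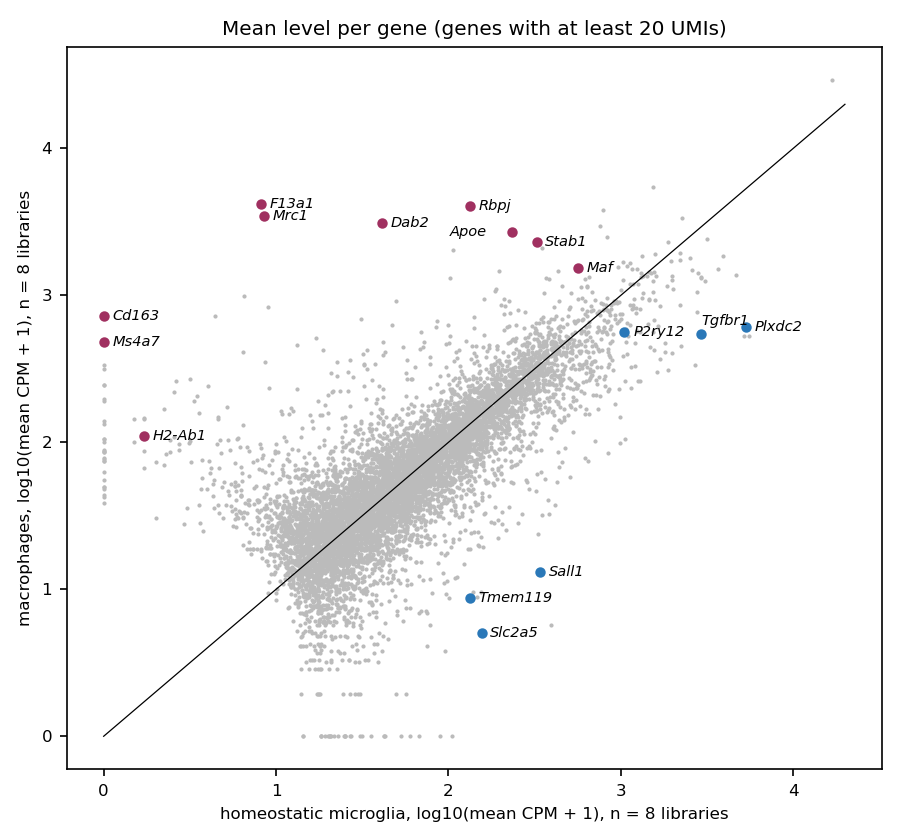
Mean CPM over 8 libraries in macrophages against homeostatic microglia, both as log10(mean CPM + 1), for 8177 genes with at least 20 UMIs; the line marks equal levels, and named genes are coloured red where macrophages are higher and blue where they are lower. F13a1, Mrc1, Cd163 and Ms4a7 sit at the upper left, and Sall1, Tmem119 and Slc2a5 sit low at the right of centre, with P2ry12 closer to the line.

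Genes of the DAM states were uneven in macrophages. Of 15 core DAM genes, 6 were at least 2-fold higher than in homeostatic microglia and 0 were lower. Of all genes, 12.9% were higher and 11.9% lower. Apoe, the lipid carrier, had 1414 and 5915 CPM in WT, 1473 and 3344 in Cnp-/-, 1712 and 1487 in 5xFAD, and 1881 and 4455 in Cnp-/-;5xFAD. In macrophages it averaged 2710 ± 1695 CPM, compared with 233 ± 142 CPM in homeostatic microglia, 481 ± 295 CPM in the amyloid-DAM subpopulation (n = 5 libraries) and 874 ± 499 CPM in the myelin-DAM subpopulation (n = 4). WT replicate 2 had the highest Apoe and also the highest Lyz2, a lysozyme, with 1541 CPM against 0 to 597 CPM in the other libraries. Other DAM genes were near 0 in macrophages: Gpnmb, a lysosomal glycoprotein, had 1 UMI (323 ± 26.8 CPM in myelin-DAM), Cst7, a cystatin, had 1 UMI (47.7 ± 16.1 CPM in amyloid-DAM), and Lpl, lipoprotein lipase, had 8 UMIs (269 ± 37.1 CPM in amyloid-DAM).

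The lists that the study drew for the DAM subpopulations were chosen on these libraries and are no independent evidence. Of 11 genes of the myelin-DAM list, 6 were at least 2-fold higher in macrophages than in homeostatic microglia and 0 were lower. Of all genes, 12.9% were higher and 11.9% lower. Pid1, an adaptor protein, had 2957 ± 749 against 757 ± 163 CPM. Apobec1, a cytidine deaminase, had 404 ± 146 against 140 ± 35.2 CPM, and 1094 ± 131 CPM in myelin-DAM. Abca1, a cholesterol exporter, had 669 ± 223 against 534 ± 151 CPM. Of 15 genes of the amyloid-DAM list, 1 was higher and 6 were lower. Plxdc2, a plexin domain protein, had 610 ± 389 against 5341 ± 633 CPM, and Csmd3, a membrane protein with CUB and sushi domains, 528 ± 299 against 5515 ± 855 CPM. The 1 member on the higher side, near the share of all genes, was Hdac9, a histone deacetylase, with 2492 ± 530 against 828 ± 195 CPM.

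The population was not uniform. Of 7 MHC class II genes, 5 were at least 2-fold higher than in homeostatic microglia, beside 12.9% of all genes. Transcripts of the MHC class II genes sat in few nuclei. Cd74, the invariant chain, had 230 and 249 CPM in WT, 273 and 0 in Cnp-/-, 277 and 22.9 in 5xFAD, and 261 and 63.9 in Cnp-/-;5xFAD. It was found in 40 of 205 nuclei, H2-Ab1 in 23, H2-Aa in 24 and the master regulator Ciita in 21. A total of 35 nuclei (17.1%, 95% Wilson interval 12.5 to 22.8%) held at least 3 UMIs of these genes, a limit set after the values had been seen. Below the cut, 4 nuclei held 2 UMIs and 140 held none, but 9 of the 35 held exactly 3, at the limit itself. By library there were 7 and 5 such nuclei in WT, 2 and 0 in Cnp-/-, 12 and 3 in 5xFAD, and 4 and 2 in Cnp-/-;5xFAD. Intervals here and below cover counting error only.

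No UMI of the Cd209 lectins was counted in nuclei with at least 3 MHC class II UMIs or in the 4 nuclei with 2. Some were counted in nuclei with 1. The sum of Cd209a, Cd209b, Cd209f and Cd209g was 0 UMIs in the 35 nuclei, which allows up to 44.0 CPM, at a median depth of 1765 UMIs. The other 170 nuclei held 327 UMIs (949 CPM), in 101 nuclei (59.4%) and in 8 of 8 libraries, at a median of 1785 UMIs. Among these were 30 nuclei with 1 or 2 MHC class II UMIs, which held 5 UMIs of Cd209a, 2 of Cd209b, 15 of Cd209f and 9 of Cd209g. Colec12 had 8 UMIs (117 CPM) in the 35 nuclei and 331 UMIs (961 CPM) in the others. Ccr2, a chemokine receptor of monocytes and of cells derived from them, had 25 UMIs (367 CPM) in the 35 nuclei and 12 UMIs (34.8 CPM) in the others. Of these 25, 17 UMIs (1010 CPM) lay in the 11 nuclei of the class that the cell type column calls microglia. Klra2, a receptor of the Ly49 family, had 33 UMIs (484 CPM) and 15 UMIs (43.5 CPM). The 4 markers summed to 5323 CPM in the 35 nuclei and to 11854 CPM in the others, and 31 of the 35 held at least 1 marker UMI. These are sums over nuclei of the same libraries, given as a description without a test.

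**Figure D3:**
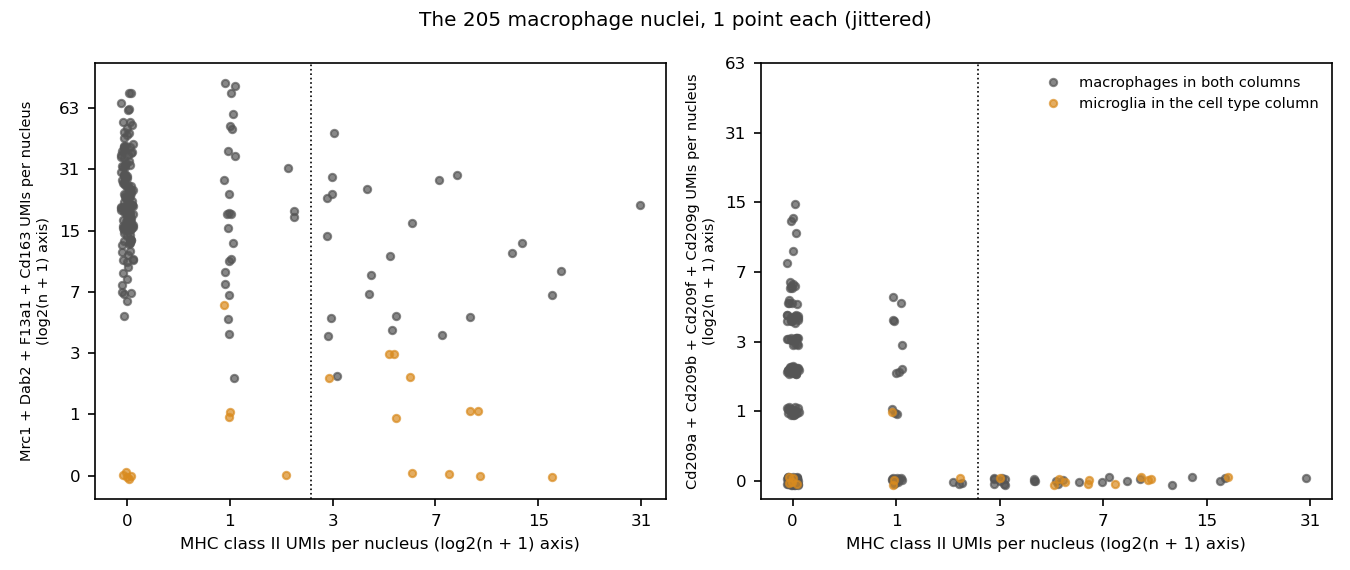
UMIs of the MHC class II genes per nucleus on the horizontal axis against UMIs of the 4 markers (left) and of 4 Cd209 genes (right), all on log2(n + 1) axes, for the 205 macrophage nuclei; the dotted line separates 35 nuclei with at least 3 MHC class II UMIs, and colour shows the label in the cell type column. To the right of the line no nucleus holds a Cd209 UMI, whereas marker UMIs are found on both sides.

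The study's 2 annotation columns did not fully match. Of the 205 nuclei, 185 were also macrophages in the annotation of cell types over all nuclei, and 20 were microglia there. Of these 20, 11 were among the 35 nuclei with MHC class II transcripts and 10 held no UMI of the 4 markers. The 10 nuclei without a marker came from WT replicate 2 (1 nucleus), 5xFAD replicates 1 (5) and 2 (3) and Cnp-/-;5xFAD replicate 1 (1). In 6 of them there were 2 or more UMIs of genes of T and natural killer cells such as Skap1 (14 UMIs) and Cd247 (3), which had 0 UMIs in the 185 nuclei that both columns call macrophages. For these 10 nuclei, the data do not bear the label out. All 20 nuclei together held 0 UMIs of F13a1 and 0 of Stab1, and had 364 CPM of Mrc1 and 802 CPM of Ccr2. The 185 nuclei had 3392 CPM of Mrc1 and 38.9 CPM of Ccr2. The label is therefore in doubt for the other 10 of the 20 as well.

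Nuclei beside the population carried its markers as well. Of the 204 nuclei called macrophages in the cell type column, 15 were placed in MyTE by the subtype column. All 15 held a marker UMI and together had 4326 CPM of the 4 markers, compared with 28.3 CPM in the other 255 MyTE nuclei and 10775 CPM in the 205 macrophages. Their oligodendrocyte genes summed to 14414 CPM, close to the 15962 CPM of the other MyTE nuclei and far from the 678 CPM of macrophages. Their median depth was 3710 UMIs. Macrophages that hold myelin transcripts and droplets that hold a macrophage with an oligodendrocyte cannot be told apart in these values, and how doublets were treated was not given in the sources used here.

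Among the 205 nuclei, genes listed for several other cell types were also found. The list of monocytes and dendritic cells, which includes Ccr2, Itga4 and Cd209a, had 283 UMIs in 126 nuclei. Itga4 gave 129 of these UMIs and Cd209a 53, and 124 and 52 of them lay in nuclei that both columns call macrophages. The list therefore does not separate other cells from macrophages. Ccr2 gave 37 UMIs, of which 22 lay in the nuclei that the cell type column calls microglia. Macrophages were higher than homeostatic microglia for the list as a whole. The list averaged 636 CPM in macrophages and 63.5 CPM in homeostatic microglia. Of its 5 genes with enough UMIs, 5 were at least 2-fold higher, beside 12.9% of all genes. Neuronal genes had 12 UMIs, fibroblast genes 23 and ependymal and choroid plexus genes 1, and in the neutrophil and mast cell list only Csf3r, which microglia also carry, was found. Astrocyte genes had 120 UMIs in 67 nuclei, at 88.4 to 546 CPM per library with the highest value in 5xFAD replicate 1, and averaged 223 CPM in macrophages and 531 CPM in homeostatic microglia. Endothelial genes had 83 UMIs in 57 nuclei, and those of pericytes and mural cells 45 UMIs in 29 nuclei. The part of these transcripts in the results was not tested. Of the oligodendrocyte list, 280 UMIs were found in 66 nuclei, with 106 and 49.7 CPM in WT, 0 and 51.4 in Cnp-/-, 1084 and 229 in 5xFAD, and 521 and 1876 in Cnp-/-;5xFAD. All 4 libraries with 5xFAD exceeded the 4 without. In 12 nuclei there were 3 or more of these UMIs, 8 of them in 5xFAD replicate 1 and 2 in each Cnp-/-;5xFAD library. Homeostatic microglia of the same libraries had 49.5 to 441 CPM of the list, and their groups overlapped.

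Macrophages were 0.125 to 0.766% of all nuclei. Their share was 0.377 and 0.279% in WT, 0.125 and 0.136% in Cnp-/-, 0.766 and 0.360% in 5xFAD, and 0.343 and 0.308% in Cnp-/-;5xFAD. The Cnp-/- libraries were lowest and 5xFAD replicate 1 was highest. Over the 4 libraries without CNP the share was 0.228 ± 0.114% (SD, n = 4), compared with 0.446 ± 0.218% in the other 4 (two-sided exact permutation test, P = 0.114, adjusted over 4 tests P = 0.190). With 5xFAD it was 0.444 ± 0.216%, compared with 0.229 ± 0.121% without (exact permutation test, P = 0.143, adjusted P = 0.190). Without 5xFAD replicate 1 the difference went from -0.218 to -0.111 percentage points for loss of CNP and from 0.215 to 0.108 for 5xFAD. The smallest P that 4 against 4 libraries allow is 0.0286 before adjustment.

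As a share of microglia and macrophages, the population depends on the number of microglia too. It was 15.6 and 27.1% in WT, 3.68 and 8.76% in Cnp-/-, 11.6 and 7.65% in 5xFAD, and 5.94 and 6.90% in Cnp-/-;5xFAD. Both WT libraries lay above all others. Loss of CNP went with 6.32 ± 2.11% against 15.5 ± 8.42% (exact permutation test, P = 0.0571, adjusted P = 0.190), and 5xFAD with 8.02 ± 2.48% against 13.8 ± 10.2% (P = 0.343 in the exact permutation test). Without WT replicate 2 the difference went from -9.17 to -5.29 percentage points for loss of CNP and from -5.77 to -1.32 for 5xFAD. With homeostatic microglia alone as the denominator it was -9.72 percentage points for loss of CNP and -0.83 for 5xFAD. Of the 4 share tests, 0 passed, but none could have passed. Within a share, loss of CNP and 5xFAD cannot both reach the smallest possible P of 0.0286. The P adjusted over the 4 tests therefore cannot fall below the threshold of 0.05 with this number of libraries. The tests cannot decide whether either share changed. The P for loss of CNP reached 0.0286, the smallest possible, in the share of all nuclei without WT replicate 2 (difference of -0.273 percentage points) and in the share of microglia and macrophages without 5xFAD replicate 2 (-11.8 percentage points). In the other direction, the exact permutation test gave P = 0.314 without Cnp-/- replicate 1 and P = 0.286 without Cnp-/- replicate 2 for the share of all nuclei, and P = 0.2 for the share of microglia and macrophages with homeostatic microglia alone as the denominator.

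**Figure D4:**
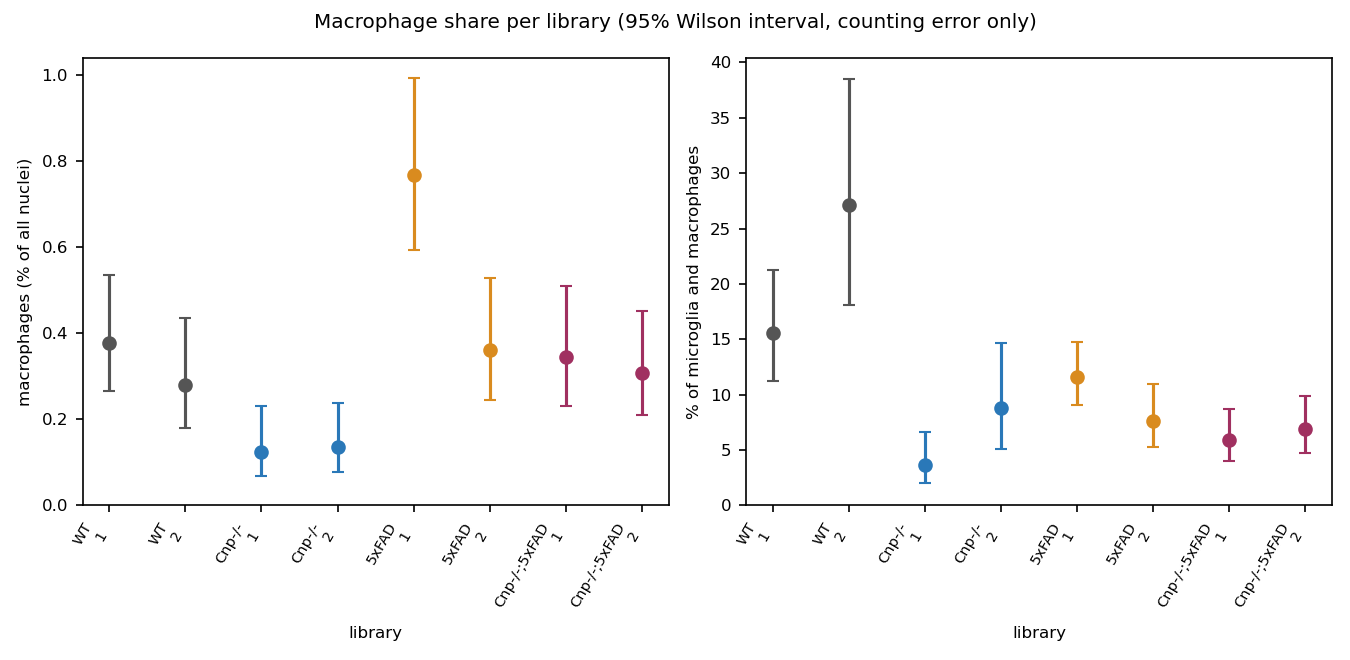
Macrophages as a percent of all nuclei (left) and of microglia and macrophages (right) in each of the 8 libraries, with 95% Wilson intervals for counting error and colours for genotype. The Cnp-/- libraries are lowest at the left, with 0.125 and 0.136%, and WT replicate 2 is highest at the right, with 27.1%, on 19 nuclei.

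Genotypes were compared within macrophages on summed counts of each library by edgeR's quasi-likelihood test over 1513 genes, with Benjamini-Hochberg adjustment over all of them. Summed counts cannot tell fewer cells with a transcript from less transcript per cell. Of the 4 markers and of the 23 border macrophage genes that were tested, 0 passed for loss of CNP, 5xFAD or their interaction.

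For loss of CNP, 0 of the 1513 genes (0%) passed in either direction. There were 61 at an unadjusted P under 0.05 in edgeR and 0 calls by DESeq2 and limma-voom. With 10 and 12 nuclei in the Cnp-/- libraries, a missing call does not show that a gene was unchanged. The gene with the lowest P was Pde4d, a phosphodiesterase that degrades cAMP (chr13:108449948-109953461, plus strand). It had 972 and 597 CPM in WT, 218 and 463 in Cnp-/-, 703 and 389 in 5xFAD, and 93.1 and 107 in Cnp-/-;5xFAD. The 2 Cnp-/-;5xFAD libraries were lowest, and Cnp-/- replicate 2 overlapped 5xFAD replicate 2. Its log2 fold change of -1.86 (SE 0.34) missed the threshold (edgeR, adjusted P = 0.0529), with adjusted P from 1.47e-05 to 0.674 over 20 alternatives, of which 11 passed. In homeostatic microglia of the same libraries it had 320 and 367 CPM in WT, 64.9 and 173 in Cnp-/-, 207 and 122 in 5xFAD, and 5.66 and 6.75 in Cnp-/-;5xFAD, a fall that passed there (log2 fold change -3.08, SE 0.43, edgeR adjusted P = 0.0411). In endothelial cells, too, all libraries without CNP lay below those with it, at 349 to 588 CPM against 621 to 734 CPM. In neurons the groups overlapped, at 1184 to 1514 CPM against 1009 to 1256 CPM, and neither cell type was tested.

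The next genes by P were far from the threshold. Rsbn1l, a nuclear protein, had 141 and 124 CPM in WT, 491 and 720 in Cnp-/-, 120 and 229 in 5xFAD, and 242 and 277 in Cnp-/-;5xFAD, so that the 4 libraries without CNP lay above the other 4 (log2 fold change 1.43, SE 0.37, edgeR adjusted P = 0.583). Such separation upward was found for 22 of 1513 genes (1.45%) and downward for 26 (1.72%). Snx30, a sorting nexin of endosomes, separated too, with 704 ± 292 against 309 ± 73.1 CPM and the same adjusted P. Ankrd12 had a log2 fold change of 1.35 and Txndc16 one of -3.36, with adjusted P of 0.583 and 0.990 in edgeR.

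With 5xFAD, 2 of 1513 genes (0.132%) rose and 0 fell, with 74 at an unadjusted P under 0.05 in edgeR. Fgf13, an intracellular fibroblast growth factor homologous factor that binds sodium channels and microtubules (chrX:59062145-59568071, minus strand), had 88.4 and 99.4 CPM in WT, 218 and 154 in Cnp-/-, 448 and 435 in 5xFAD, and 559 and 576 in Cnp-/-;5xFAD. The 4 libraries with 5xFAD did not overlap the other 4, with 504 ± 73.0 against 140 ± 59.5 CPM (28 of 1513 genes, 1.85%, separated upward and 31, 2.05%, downward), and the log2 fold change was 1.98 (SE 0.33, edgeR adjusted P = 0.0129). DESeq2 gave an adjusted P of 0.363 and limma-voom one of 0.994, and without Cnp-/-;5xFAD replicate 2 edgeR gave 0.0544.

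The Fgf13 molecules were concentrated in the nuclei that stood apart. Its 152 UMIs lay in 51 nuclei, and 72 of them lay in the 35 nuclei with MHC class II transcripts, at 1056 CPM against 232 CPM in the other nuclei. Of these 72, 46 lay in 5 of the 9 nuclei that held exactly 3 MHC class II UMIs, at the limit itself (2212 CPM). A few nuclei carried much of the gene, since the 5 highest of all 205 held 68 UMIs. The 20 nuclei that the cell type column calls microglia held 53. In the 185 nuclei that both columns call macrophages the log2 fold change was 1.41 (edgeR adjusted P = 0.578), and without the MHC class II nuclei it was 1.40 (adjusted P = 0.622), so the call was lost without either set of nuclei. Without the MHC class II nuclei, the libraries with 5xFAD still lay above those without, at 211 to 431 CPM against 45.2 to 192 CPM. In the 185 nuclei they overlapped, at 165 to 396 CPM against 55.4 to 218 CPM. For comparison, Fgf13 had 4021 ± 106 CPM in amyloid-DAM (n = 5), 3095 ± 717 CPM in myelin-DAM (n = 4) and 839 ± 208 CPM in homeostatic microglia (n = 8), all above the 322 ± 204 CPM of macrophages.

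Mast4, a microtubule-associated kinase (chr13:102732486-103334497, minus strand), had 35.3 and 0 CPM in WT, 0 and 51.4 in Cnp-/-, 419 and 206 in 5xFAD, and 261 and 298 in Cnp-/-;5xFAD. The groups did not overlap, with 296 ± 90.2 against 21.7 ± 25.9 CPM and a log2 fold change of 3.64 (SE 0.69, edgeR adjusted P = 0.0329). The libraries without 5xFAD held 3 Mast4 UMIs in all, so the size of the change rests on very few molecules. Of the 96 UMIs, 35 lay in the 5 highest nuclei. Mast4 was abundant in mature oligodendrocytes (3446 CPM) and in MyTE (2104 CPM), and 39 of its 96 UMIs lay in the 12 nuclei with oligodendrocyte transcripts. In the remaining nuclei Mast4 had 230 CPM with 5xFAD and 22.3 CPM without, over pooled libraries, and it then failed the filter on low counts, so that no P is given. The call was lost in 7 of 18 alternatives, with adjusted P of 0.363 by DESeq2, 0.994 by limma-voom, 0.393 without 5xFAD replicate 1, 0.0544 without Cnp-/-;5xFAD replicate 2, 0.0647 in nuclei with a marker UMI, 0.144 in nuclei that both columns call macrophages and 0.151 without the MHC class II nuclei. The log2 fold change lay between 3.22 and 5.48 with 1 library left out and between 3.31 and 3.79 in the other alternatives.

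The next genes by P in this contrast were App (log2 fold change 2.36, edgeR adjusted P = 0.397), Bcl2 (2.63, adjusted P = 0.425) and Plxdc2 (1.42, adjusted P = 0.430). App, the amyloid precursor, had 406 and 149 CPM in WT, 0 and 51.4 in Cnp-/-, 643 and 320 in 5xFAD, and 540 and 234 in Cnp-/-;5xFAD. The groups overlapped, and reads of the human transgene and of the mouse gene may not be separated in these counts. Neurons, where Thy1 drives the transgene, had 371 to 413 CPM with 5xFAD and 381 to 419 CPM without. Of the 170 App UMIs in macrophages, 42 lay in the 12 nuclei with oligodendrocyte transcripts, and mature oligodendrocytes had 1396 CPM. In the remaining macrophages App had 417 CPM with 5xFAD and 223 CPM without, over pooled libraries. The source of the App transcripts was not tested. Whether the effect of CNP loss differed with 5xFAD was tested as an interaction, in which 0 of 1513 genes passed (0%; 50 at an unadjusted P under 0.05 in edgeR, 0 calls by DESeq2 and limma-voom).

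**Figure D5:**
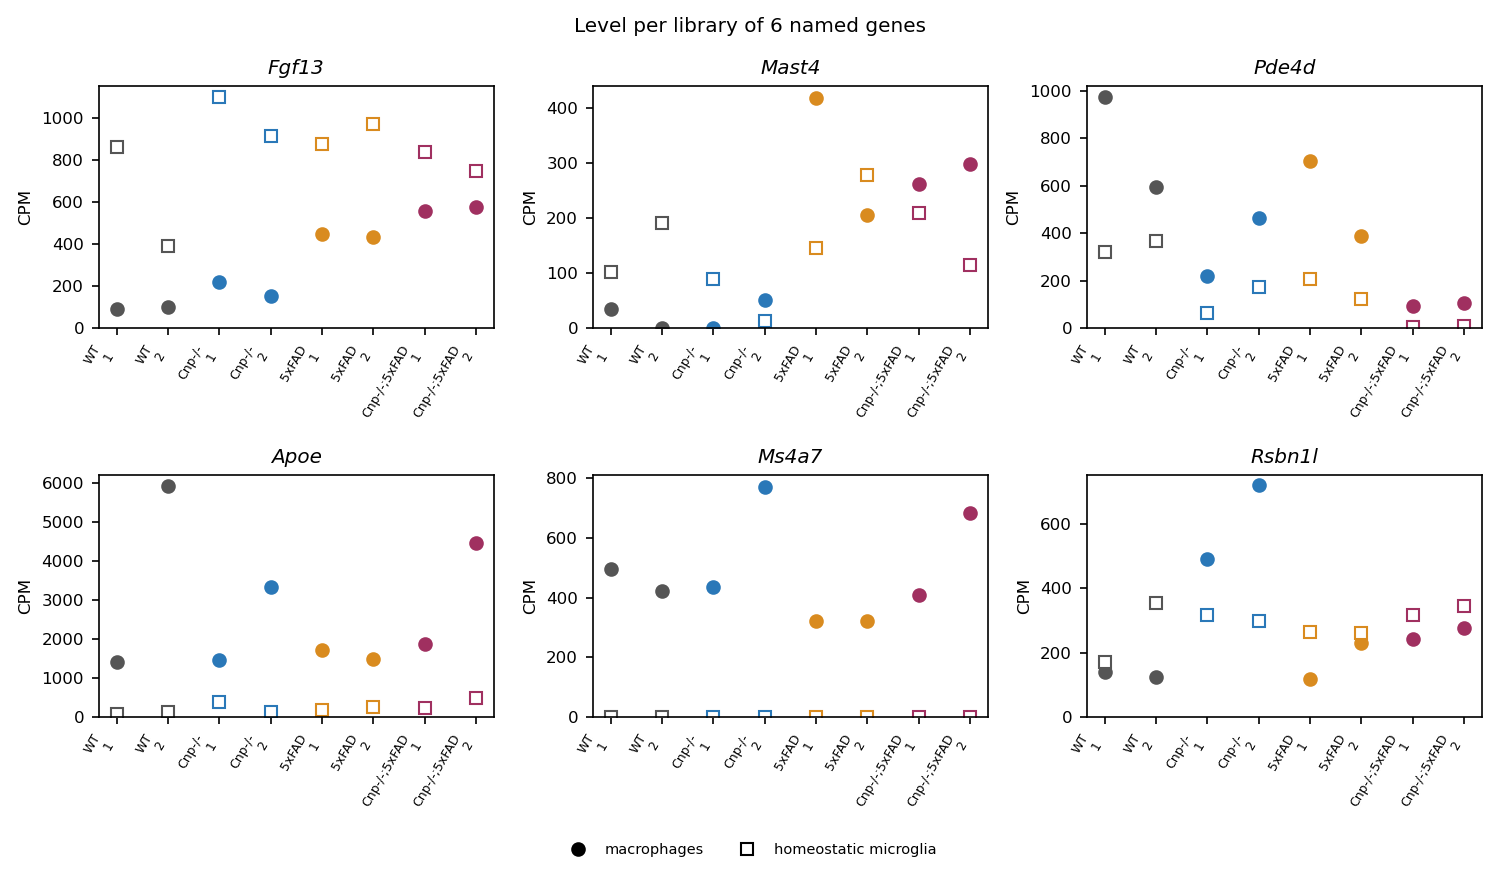
CPM per library of 6 named genes in macrophages (filled circles) and homeostatic microglia (open squares), coloured by genotype. Fgf13 and Mast4 in macrophages are higher in the 4 libraries with 5xFAD, Pde4d is lowest in Cnp-/-;5xFAD in both populations, and Apoe and Ms4a7 overlap between libraries with and without CNP and between those with and without 5xFAD.

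Of the genes that the study followed in DAM, 8 of 19 on the core list, 11 of 16 on the amyloid-DAM list and 11 of 12 on the myelin-DAM list had enough UMIs to be tested in macrophages, and 0 of those passed. Gpnmb and Cst7, with 1 UMI each, could not be read. For loss of CNP, the log2 fold change was 0.17 for Apoe (SE 0.37, edgeR adjusted P = 0.996), 0.57 for Ms4a7 (adjusted P = 0.990), 0.14 for Abca1 and 0.14 for Apobec1. For 5xFAD it was -0.34 for Apoe, -0.28 for Ms4a7, 0.31 for Abca1 and 0.19 for Apobec1, with adjusted P of 0.958 to 0.986 in edgeR. Abca1 had 778 and 447 CPM in WT, 873 and 309 in Cnp-/-, 486 and 823 in 5xFAD, and 745 and 895 in Cnp-/-;5xFAD. Apobec1 had 353 and 398 CPM in WT, 491 and 360 in Cnp-/-, 576 and 160 in 5xFAD, and 596 and 298 in Cnp-/-;5xFAD. Libraries with and without CNP overlapped for all 4 genes, as did those with and without 5xFAD.

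Of 27 gene lists, 20 had a member with enough UMIs to be tested, and 0 of these 20 had a member that passed for loss of CNP, for 5xFAD or for the interaction. No member was tested of the 7 lists of oligodendrocytes, astrocytes, neurons, endothelial cells, pericytes, fibroblasts and ependymal cells, and 1 or 2 members were tested of MHC class II and of the lists of monocytes, lymphocytes and neutrophils. Summed over their members, 0 of the 27 lists separated the libraries by loss of CNP and 3 separated them by 5xFAD. The amyloid-DAM list of the study, which was chosen on these libraries, summed to 6407 to 8095 CPM with 5xFAD and to 4153 to 6313 CPM without, and 11 of its 11 tested members had a positive log2 fold change (median 0.53, compared with 763 of 1513 genes and a median of 0.01 over all genes), while 0 of the 11 separated the libraries with 5xFAD from those without. Of the 20 nuclei that the cell type column calls microglia, 9 and 3 came from 5xFAD, 2 and 3 from Cnp-/-;5xFAD, 2 and 1 from WT and 0 from Cnp-/-. The 12 nuclei with oligodendrocyte transcripts all came from libraries with 5xFAD. They held 73 of the 282 UMIs of Plxdc2, a member of the list. In the remaining macrophages Plxdc2 had 724 CPM with 5xFAD and 290 CPM without, over pooled libraries. The part of these 2 sets of nuclei in the sum was not tested. Homeostatic microglia had 17046 to 21680 CPM with and 16086 to 21493 CPM without 5xFAD for this list, so that their groups overlapped. The list of macrophage transcription factors had lower sums, with 17244 to 18963 CPM with 5xFAD and 19035 to 23666 CPM without. Of its 14 tested members, 6 had a positive log2 fold change (median -0.20) and 2 separated the libraries downward. Over all genes, 28 of 1513 (1.85%) separated upward with 5xFAD and 31 (2.05%) downward. With so few members, the counts of 0 of 11 and 2 of 14 say little about either list. The oligodendrocyte list was higher, as given above. The border macrophage list overlapped, with 22535 to 28818 CPM with 5xFAD and 23780 to 39975 CPM without. Of its 23 tested members, 8 had a positive log2 fold change with 5xFAD. The same held for 0 of 4 markers, 1 of 6 complement genes and 0 of 7 genes of interferon response and MHC class I, whose sums overlapped too.

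Whether a genotype acted differently on macrophages than on homeostatic microglia of the same libraries was tested over 3378 genes with the library as a block. The difference in the effect of CNP loss passed for 0 genes (0%; 143 at an unadjusted P under 0.05 in edgeR, 0 calls by DESeq2). The gene with the lowest P was St6gal1, a sialyltransferase, at -1.28 on the log2 scale (SE 0.33, adjusted P = 0.450). With all microglia other than MyTE in place of homeostatic microglia, 10 genes passed, all with a lower effect in macrophages, among them Apoe and Colec12. That comparison also includes the DAM subpopulations.

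The difference in the effect of 5xFAD passed for 1 gene upward (0.0296%) and for 0 downward. This gene was again Fgf13, at 1.92 on the log2 scale (SE 0.39, edgeR adjusted P = 0.00438). In homeostatic microglia it had 863 and 392 CPM in WT, 1102 and 916 in Cnp-/-, 879 and 974 in 5xFAD, and 838 and 750 in Cnp-/-;5xFAD, with overlapping groups and a log2 fold change of 0.05 (adjusted P = 0.997). The call was lost with all microglia other than MyTE (0.94, adjusted P = 0.718), in nuclei that both columns call macrophages (adjusted P = 0.452), by DESeq2 (0.870), with no replicate block (0.191), and without WT replicate 1 (0.233) or 5xFAD replicate 1 (0.0634). The difference itself lay between 1.73 and 2.21 with 1 library left out and between 0.94 and 2.01 in the other alternatives. Plxdc2, Clip1, Rora and Setd7 followed, each with an adjusted P of 0.0551 in edgeR.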

How the data were processed

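Single nuclei of frozen brain hemispheres were captured with a 10x 3′ kit in 8 libraries, 2 for each of 4 genotypes. Per the labels and the study's methods, the authors aligned reads with Cell Ranger (version 6.1.2 and build mm10 in the submitters' processing notes), removed ambient transcripts with CellBender, filtered nuclei on detected genes and UMIs and clustered them with Seurat. The deposited values are UMI counts per gene and nucleus without normalization, in 1 table of all nuclei and 1 of microglia and macrophages, with labels per nucleus and the authors' percent of mitochondrial UMIs. The handling of doublets and of intronic reads was not given in the sources used here. No column was left unused for want of a sample (0).

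Macrophages were taken by the subtype label, and the library was the replicate. Counts were summed per library over at least 10 nuclei, giving 18335 to 133792 UMIs. Genes were filtered with filterByExpr, scaled by TMM and tested two-sided with edgeR's quasi-likelihood test (glmQLFit, edgeR 4.0.16, R 4.3.3), with 1 mean per genotype and a Benjamini-Hochberg threshold of 0.05. The difference from homeostatic microglia was tested as cell type by genotype with the library as a block. Shares were tested two-sided by exact permutation over 70 relabellings (scipy 1.17.1). Alternatives were DESeq2 1.42.0, limma-voom (limma 3.58.1), other filters, scalings and models, other sets of nuclei and each library left out in turn. The edgeR models were first checked on simulated counts with known changes. A gene at 0 was given a floor of 3 UMIs over the group. Positions are those of GENCODE for GRCm38, and promoters those of RefSeq for GRCm38.p6.

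The members and gene lists were chosen with earlier results of these data known. Genes are named if they are 1 of the 4 markers, among the 20 highest ratios of macrophages over homeostatic microglia (1 UMI added to both sums where microglia had 0, at least 20 UMIs in macrophages and a UMI in at least 6 libraries) or the 10 lowest (at least 50 UMIs in homeostatic microglia), among the 2 to 4 members of a list with the most UMIs, past a test (up to 10 in each direction), among the 5 lowest P of a contrast where fewer than 5 passed, or named by the study for DAM. Sall1, Tmem119, P2ry12, Maf, Spi1, Lyve1, Msr1, Vsig4, Itgam, Ciita, Gpnmb, Cst7, Lpl, Klra2 in single nuclei and the genes of T and natural killer cells were named for their known roles after their values had been seen. Values of a few list members are not reported here. Replicate numbers did not pair the samples, since the correlation of replicate differences between genotypes over 1513 genes lay between -0.0586 and 0.0687. The sets of nuclei that both annotation columns call macrophages, and those without MHC class II transcripts, were chosen after seeing the data.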

Additional observations from a re-analysis of the deposited data

Results flagged for a closer look

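A library that stood far from the other 3 of its arm was found in 6 of 60 groups tested, of which chance nominally gives about 1 in 20. That rate was not worked out for these values, some of which rest on 0 to 3 UMIs. The macrophage share of all nuclei with 5xFAD was 0.766% in 5xFAD replicate 1 and 0.308 to 0.360% in the other 3 libraries. Apoe stood out in a library of each of 2 arms, with 5915 CPM in WT replicate 2, against 1414 to 1712 CPM in the other libraries with CNP, and 4455 CPM in Cnp-/-;5xFAD replicate 2, against 1487 to 1881 CPM in the other libraries with 5xFAD. Ankrd12 had 297 CPM in 5xFAD replicate 2, against 124 to 141 CPM in the other libraries with CNP. Plxdc2 had 1036 CPM in Cnp-/- replicate 1, against 106 to 257 CPM in the other libraries without 5xFAD. Bcl2 had 0 UMIs (0 CPM) in WT replicate 2, against 51.4 to 54.5 CPM in the other libraries without 5xFAD, which are 3 UMIs in WT replicate 1 and 1 UMI in each Cnp-/- library.

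The effect of 5xFAD on Fgf13 differed between macrophages and homeostatic microglia by 1.92 on the log2 scale, by the test of that difference in edgeR, a call that was lost in 6 of 14 alternatives.

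Outside the table of microglia and macrophages, 26 nuclei that the annotation of all nuclei calls microglia lay in the macrophage cluster and held 602 UMIs of the 4 markers (3777 CPM). They came from all 8 libraries, with 5 and 8 in WT, 1 and 3 in Cnp-/-, 2 and 3 in 5xFAD, and 2 and 2 in Cnp-/-;5xFAD. Their median depth was 4786.5 UMIs, compared with 1783 in macrophages, and their oligodendrocyte genes summed to 3752 CPM, compared with 678 CPM. They entered no comparison.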

How the results depend on the processing

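The number of genes that passed for loss of CNP was 1 in place of 0 without a filter, with at least 15 UMIs in total, with the replicate block, without nuclei holding oligodendrocyte transcripts, in nuclei with a marker UMI, in the additive model and with 5xFAD and Cnp-/-;5xFAD libraries alone, and 0 to 8 with 1 library left out (8 without WT replicate 1, 2 without WT replicate 2, and 1 without Cnp-/- replicate 2 or 5xFAD replicate 2). For 5xFAD, in place of 2, it was 18 without a filter, 12 with at least 15 UMIs, 1 without nuclei holding oligodendrocyte transcripts, 1 in nuclei with a marker UMI, 0 by DESeq2, limma-voom, in nuclei that both columns call macrophages and without the MHC class II nuclei, and 0 to 22 with 1 library left out (22 and 20 without WT replicates 1 and 2, 19 without 5xFAD replicate 2, 8 and 0 without Cnp-/-;5xFAD replicates 1 and 2, and 6 without Cnp-/- replicate 1). The interaction gave 0 to 8 with 1 library left out (8 and 1 without WT replicates 1 and 2, and 1 without Cnp-/- replicate 1). For the difference from homeostatic microglia, loss of CNP gave 10 with all microglia other than MyTE, and 5xFAD gave 3 without a filter and 0 by DESeq2, with all microglia other than MyTE, with no replicate block and in nuclei that both columns call macrophages, and 0 to 6 with 1 library left out (6 and 2 without Cnp-/- replicates 1 and 2, 0 and 3 without 5xFAD replicates 1 and 2, and 4 without Cnp-/-;5xFAD replicate 1). Genes at least 2-fold higher in macrophages were 487 with at least 50 UMIs, where fewer genes are counted. With 1 library left out, the share of all nuclei changed with loss of CNP by -0.273 to -0.111 percentage points and the share of microglia and macrophages by -11.8 to -5.29, and with 5xFAD they changed by 0.108 to 0.264 and by -9.14 to -1.32. Txndc16 turned to 0.042 on the log2 scale with 5xFAD and Cnp-/-;5xFAD libraries alone, and the Fth1 interaction, which lay between -5.22 and 3.64 with 1 library left out, to 3.64 without Cnp-/- replicate 2. Apart from the constructions named, the cause was not tested. With 10 to 57 nuclei per library, 1513 genes had enough UMIs to be tested, and the other genes could not be read at this depth. With 1 library left out, the lone library of a genotype is assumed to vary like the others.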

Other observations

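Bank1, an adaptor of B cell receptor signalling, had 1030 ± 346 CPM in macrophages, 358 ± 89.0 CPM in homeostatic microglia and 38.5 ± 31.0 CPM in amyloid-DAM (SD, n = 8, 8 and 5 libraries). It was found in 127 of 205 macrophages, whereas other genes of lymphocytes were near 0, so it was left out of the count of lymphocyte transcripts. Csf3r, the receptor for granulocyte colony-stimulating factor, had 221 ± 115 CPM in macrophages and 838 ± 79.5 CPM in homeostatic microglia. Itga4, an integrin of circulating and border cells, had 294 ± 51.6 CPM in macrophages and 19.8 ± 13.5 CPM in homeostatic microglia, and was detected in 84 nuclei.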
